A study of Homo sapiens with 6 samples.

Results

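GLIPR1 and its relatives of the CAP superfamily were followed in HCT116 cells, a long-established line from a human colorectal carcinoma. The 10 genes listed were GLIPR1, its chromosome 12 neighbours GLIPR1L1 and GLIPR1L2, and the CAP-domain genes GLIPR2, CRISP2, CRISP3, CRISPLD1, CRISPLD2, PI15 and PI16. GLIPR1 was chosen by its measured difference between the lines compared here, so its values are a description and carry no test. The other genes were listed for their domain or their position. A probe set annotated to exactly 1 gene symbol was required, and 9 of the 10 genes had one, each a single probe set, among 18417 genes so named and 33297 probe sets in all. GLIPR2 was not analysed here.

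The study asked how a gene mutation changes expression across the genome, beside DNA methylation, which was not analysed here. Expression was measured on 3 arrays of an HCT116-derived mutant line whose DNA methylation is labelled as altered and on 3 arrays of parental HCT116, all without a labelled treatment and grown in the same culture medium. The labels neither name the mutated gene nor say whether arrays of a line came from separate cultures or clones, so the spread behind each p-value is that among these arrays and may be technical. An effect of the mutation cannot be told apart from any other difference between the lines. Values are log2 expression after robust multi-array average (RMA) processing, in which 1 unit is a doubling. Array medians were 6.90 to 6.93 in the mutant and 6.88 to 6.93 in parental cells.

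The CAP superfamily is named after cysteine-rich secretory proteins, insect venom antigens and plant pathogenesis-related proteins, which share a conserved fold held together in most members by disulfide bonds. Most mammalian members are secreted or membrane-bound glycoproteins, and many are made in the male reproductive tract. GLIPR1, also called RTVP1, was first described in glioma. It has been described as silenced by promoter methylation in prostate cancer, and has been linked to reduced growth there and to migration and invasion in glioma.

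GLIPR1 was 11.5-fold higher in the mutant line, the rank 3 increase among 18417 genes. Its probe set (7957260, chromosome 12) read 9.44, 9.42 and 9.58 in the mutant arrays, against 6.14, 5.69 and 6.04 in the parental arrays. The means were 9.48 ± 0.09 in the mutant and 5.96 ± 0.24 in parental cells (SD, n = 3 each), a log2 difference of 3.52 with an SE of 0.12. All mutant arrays lay above all parental arrays, and the lowest mutant value exceeded the highest parental value by 3.28. Arrays of a line spanned far less, 0.16 in the mutant and 0.45 in parental cells. Leaving out each array in turn gave differences of 3.39 to 3.61. In bulk RNA a larger share of GLIPR1-expressing cells and more GLIPR1 RNA per cell cannot be told apart.

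None of the other 8 measured CAP genes moved on that scale: the largest difference among them was 0.37 in size. Their median difference was -0.02 and their median size 0.14, against 0.00 and 0.12 over all genes. With limma and Benjamini-Hochberg adjustment over all probe sets, an adjusted p under 0.05 was called. PI15 fell, 0 of the 8 rose, and 7 were not called. Over all genes 14.6% were called higher and 11.3% lower in the mutant, 25.9% together, and over all probe sets 18.5%. With GLIPR1, the 9 genes counted 1 called higher and 1 lower, from which nothing is read because GLIPR1 was picked on this contrast. Groups did not overlap for 5 of the 8, or 6 of 9 with GLIPR1, against 45.8% of all genes. For 6 of the 8 the mean over all arrays was under 5, near the arrays' lower quartile of 4.99 to 5.01 in the mutant and 5.01 to 5.04 in parental cells. At such levels RMA compresses changes and calls were few, 4.1% of genes. No detection calls were used, so a low value is not read as expressed or silent.

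**Figure D1:**
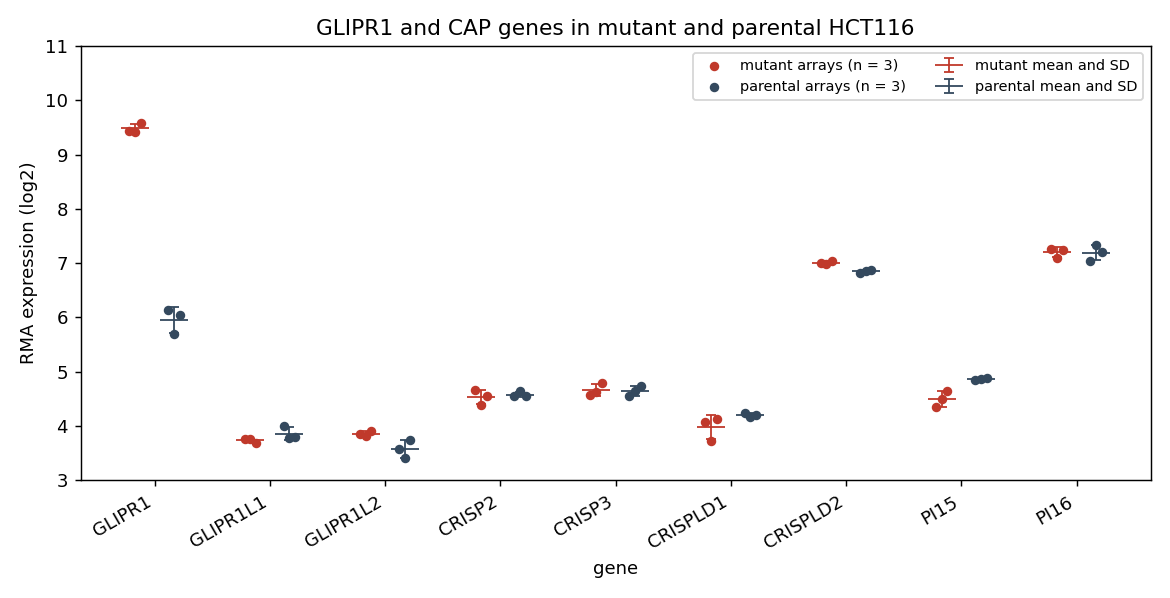
RMA log2 expression (vertical axis) of the 9 measured CAP genes in each of 3 mutant and 3 parental arrays, as points, with the mean and SD as horizontal line and bar. GLIPR1 is separated by 3.28 log2 units between the nearest arrays of the lines, while the other genes differ by 0.37 or less in their means; levels of different genes come from different probe sets and are not compared.

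The cluster neighbours of GLIPR1 are both genes of the male germ line. GLIPR1L1 encodes a sperm protein, studied in mouse and cattle, that takes part in binding to the egg coat. It read 3.76, 3.76 and 3.70 in the mutant arrays, against 4.01, 3.79 and 3.79 in parental arrays (probe set 7957245). The mutant arrays lay just below all parental arrays, but the difference of -0.13 was not called (95% interval -0.31 to 0.05, limma adjusted p = 0.329). Without parental replicate 1 it was -0.06. GLIPR1L2 encodes a related protein found mainly in testis. It read 3.85, 3.82 and 3.91 in the mutant, against 3.58, 3.42 and 3.75 in parental cells (probe set 7957253). All mutant arrays lay above the parental arrays by a difference of 0.28, which was not called (interval 0.06 to 0.50, limma adjusted p = 0.0908). Of 13 alternatives, 2 called GLIPR1L2: limma adjusted p was 0.0406 with only single-symbol probe sets tested and 0.0347 without parental replicate 3. It was 0.144 with an intensity trend and 0.17 to 0.209 when any other array was left out. Over all arrays GLIPR1L1 averaged 3.80 and GLIPR1L2 3.72, levels at which RMA compresses changes, so their intervals are not set against the GLIPR1 difference.

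CRISP2 and CRISP3, adjacent paralogs on chromosome 6, gave overlapping groups. CRISP2 is a protein of the sperm acrosome and tail. It read 4.66, 4.39 and 4.55 in the mutant arrays, against 4.55, 4.64 and 4.56 in parental arrays (probe set 8126891). The difference was -0.05 (interval -0.24 to 0.15, limma adjusted p = 0.782). CRISP3 is secreted by salivary gland and prostate and stored in neutrophil granules. It read 4.58, 4.64 and 4.80 in the mutant, against 4.55, 4.65 and 4.73 in parental cells (probe set 8126905). Its difference was 0.03 (interval -0.17 to 0.22, limma adjusted p = 0.873).

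Because the mutant line is labelled for altered DNA methylation, the CpG content of the promoters is shown for the genes beside GLIPR1 and for the CRISP pair, which lie side by side and differ in CG content. Promoter sequences from RefSeq (GRCh38.p14, 250 bases before to 50 after a gene's start) were matched for 6 of the 10 genes, and GLIPR1, GLIPR1L2, CRISPLD1 and PI15 had no match. Capitals mark CG pairs, the letters searched, which read the same on both strands. GLIPR1L1 lies at chr12:75334420-75334719 on the plus strand, CRISP2 at chr6:49713494-49713793 and CRISP3 at chr6:49744339-49744638, both on the minus strand.
GLIPR1L1: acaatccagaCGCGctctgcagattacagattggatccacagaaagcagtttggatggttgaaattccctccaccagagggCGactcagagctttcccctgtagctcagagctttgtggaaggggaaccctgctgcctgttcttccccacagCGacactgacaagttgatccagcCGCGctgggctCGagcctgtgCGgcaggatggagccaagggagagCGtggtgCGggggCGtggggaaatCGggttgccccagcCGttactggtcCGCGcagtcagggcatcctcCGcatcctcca
CRISP2: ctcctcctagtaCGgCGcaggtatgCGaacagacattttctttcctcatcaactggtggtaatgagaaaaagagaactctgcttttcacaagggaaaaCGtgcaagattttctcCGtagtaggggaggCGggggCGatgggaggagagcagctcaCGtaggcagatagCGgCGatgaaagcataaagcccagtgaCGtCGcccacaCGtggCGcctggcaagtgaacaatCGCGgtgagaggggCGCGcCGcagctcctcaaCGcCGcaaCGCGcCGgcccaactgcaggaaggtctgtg
CRISP3: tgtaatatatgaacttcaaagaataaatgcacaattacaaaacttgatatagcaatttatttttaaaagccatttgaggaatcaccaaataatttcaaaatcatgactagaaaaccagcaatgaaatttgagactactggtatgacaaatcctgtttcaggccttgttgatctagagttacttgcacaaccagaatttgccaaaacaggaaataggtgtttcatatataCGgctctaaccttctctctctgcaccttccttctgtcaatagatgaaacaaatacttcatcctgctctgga
The windows hold 16 CG pairs for GLIPR1L1, 24 for CRISP2 and 1 for CRISP3. Over 35116 promoters of this length the quartiles were 4, 14 and 28, and 52.5%, 66.1% and 3.96% of promoters held fewer pairs than these 3 windows. Of the others, CRISPLD2 held 31, PI16 held 3 and both GLIPR2 windows held 39. CRISP2, with 24 pairs, and CRISP3, with 1, had expression differences of -0.05 and 0.03. Their means over all arrays were 4.56 and 4.66, levels at which RMA compresses changes. Base content is not methylation, and no link between the windows and expression was tested.

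CRISPLD1 and CRISPLD2 join a CAP domain to LCCL domains, and CRISPLD2 is a secreted protein that binds bacterial lipopolysaccharide. CRISPLD2 read 7.01, 6.98 and 7.04 in the mutant arrays, against 6.83, 6.85 and 6.87 in parental arrays (probe set 7997642, chromosome 16). The tight groups did not overlap, and the difference of 0.16 was not called (interval 0.05 to 0.27, limma adjusted p = 0.0659). Of 14 alternatives, 2 called CRISPLD2: only single-symbol probe sets (limma adjusted p = 0.0339) and only probe sets of mean log2 at least 6 (0.0245). Adjusted p was 0.137 with an intensity trend, 0.135 with a replicate block and 0.119 to 0.173 when an array was left out. CRISPLD1 read 4.08, 3.72 and 4.13 in the mutant, against 4.24, 4.17 and 4.20 in parental cells (probe set 8146967, chromosome 8). Mutant replicate 2 was the lowest, all mutant arrays lay below the parental ones, and the difference of -0.22 was not called (interval -0.50 to 0.05, limma adjusted p = 0.265). Without mutant replicate 2 it was -0.09.

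PI15 and PI16 were named as peptidase inhibitors. PI15 is a secreted protein that weakly inhibits trypsin, and its gene is next to CRISPLD1 on chromosome 8. It read 4.34, 4.51 and 4.64 in the mutant arrays, against 4.85, 4.86 and 4.88 in parental arrays (probe set 8146957). All mutant arrays were lower, and PI15 fell 1.29-fold, a log2 difference of -0.37 (interval -0.57 to -0.17, limma adjusted p = 0.0267). The call was lost without mutant replicate 2 (adjusted p = 0.0801) or without parental replicate 1, 2 or 3 (0.0729, 0.0822 and 0.0811), and with a minimum fold of 1.2 (0.993). PI16, a membrane-anchored protein of fibroblasts and some T cells, read 7.25, 7.10 and 7.25 in the mutant, against 7.05, 7.33 and 7.21 in parental cells (probe set 8119124, chromosome 6). The groups overlapped and the difference was 0.01 (interval -0.21 to 0.22, limma adjusted p = 0.974).

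2 more CAP-domain genes were measured of 5 listed, and limma called 0 of them, with 0 at an unadjusted p under 0.05, against 25.9% of all genes called. CRISP1, which coats sperm in the epididymis, averaged 4.00 ± 0.05 in mutant and 4.02 ± 0.16 in parental cells (SD, n = 3 each). It differed by -0.03 (limma adjusted p = 0.891). R3HDML, a little-studied relative, averaged 6.26 ± 0.16 in mutant and 6.36 ± 0.05 in parental cells, a difference of -0.10 (adjusted p = 0.539 by limma). CLEC18A, CLEC18B and CLEC18C share 3 probe sets annotated to all of them and were not used here.

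Among genes listed as regulators, binding partners or downstream genes of GLIPR1 or GLIPR2, together called regulators and partners here, 15 were measured. limma called 2 higher and 2 lower and left 11 uncalled. Their median difference was 0.06 and their median size 0.15, against 0.00 and 0.12 over all genes. All 15 had means above 7, where 36.5% of genes were called. Groups did not overlap for 11 of 15, against 45.8% of all genes at any level. That share was not counted for genes with means above 7 alone. FOS, a subunit of the AP-1 transcription factor, read 7.980, 7.992 and 8.003 in the mutant, against 7.713, 7.576 and 7.725 in parental cells. FOS rose by 0.32 (limma adjusted p = 0.0127). Its partner JUN differed by 0.15 and was not called (adjusted p = 0.351), nor was SRF, which binds the GLIPR1 promoter in glioma cells, at 0.19 (adjusted p = 0.0629). SP1, a transcription factor of GC-rich promoters, differed by 0.04 (adjusted p = 0.688).

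Among binding partners and downstream genes, HSPA5, the chaperone of the endoplasmic reticulum, read 13.38, 13.39 and 13.39 in the mutant, against 13.09, 13.09 and 13.21 in parental cells. HSPA5 rose by 0.26 (limma adjusted p = 0.0203). CSNK1A1, the casein kinase that primes beta-catenin for destruction, read 10.74, 10.80 and 10.78 in the mutant, against 11.05, 10.96 and 11.11 in parental cells. It fell by 0.27 on the log2 scale (limma adjusted p = 0.0223). CTNNB1, which encodes beta-catenin, and MYC, its target, differed by 0.12 and -0.18 and were not called (adjusted p = 0.18 and 0.0834). The RNA-binding protein HNRNPK differed by 0.08, the actin regulator WASL by -0.06, and the mitotic genes AURKA and TPX2 by 0.09 and 0.06. None of these 4 was called (adjusted p = 0.311, 0.501, 0.293 and 0.472).

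GLIPR2 is a Golgi membrane protein whose partners include CAV1, BECN1 and TMED1. CAV1, the coat protein of caveolae, read 12.81, 12.83 and 12.84 in the mutant, against 13.08, 13.10 and 13.16 in parental cells. CAV1 fell by 0.29 on the log2 scale (limma adjusted p = 0.0087) and its groups did not overlap. BECN1, an autophagy initiator, differed by -0.24 (adjusted p = 0.0824) and TMED1, which helps sort cargo leaving the endoplasmic reticulum, by 0.06 (adjusted p = 0.578), neither called. Of the 15 regulators and partners, 1 to 3 were called when an array was left out: 1 without mutant replicate 2, 2 without mutant replicate 1 or 3 or parental replicate 1, and 3 without parental replicate 2 or 3. The HSPA5 and CSNK1A1 calls were each lost for 5 of 6 arrays (highest adjusted p = 0.0809 and 0.0745), and that of FOS without mutant replicate 2 (adjusted p = 0.0503).

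**Figure D2:**
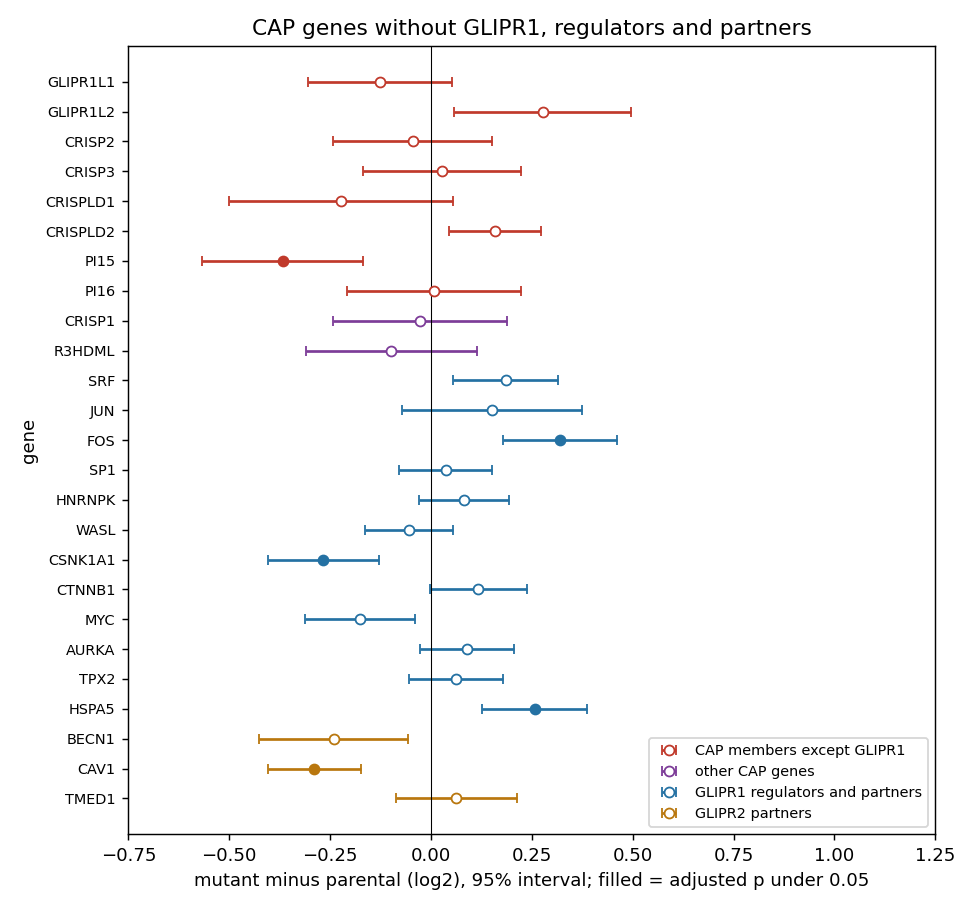
Mutant minus parental log2 difference (horizontal axis) with its 95% interval for the 8 measured CAP genes other than GLIPR1, 2 further CAP genes, 12 GLIPR1 regulators and partners and 3 GLIPR2 partners. Filled points, PI15, FOS, CSNK1A1, HSPA5 and CAV1, had a limma adjusted p under 0.05; every difference shown is 0.37 or less in size.

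On chromosome 12, genes beside GLIPR1 moved in both directions. In RefSeq gene order (GRCh38.p14), 20 measured genes were taken, 10 on each side of the cluster, and limma called 7 higher and 4 lower, with 9 not called. Groups did not overlap for 15 of the 20, against 45.8% of all genes at any level, a share not counted by level. The called share is set beside 25.9% of all genes and 36.5% of genes with a mean of at least 7, without a test. The nearest genes differed far less than GLIPR1. CAPS2, a calcium-binding protein gene next to the cluster, read 7.47, 7.43 and 7.40 in the mutant, against 7.03, 7.16 and 7.07 in parental cells, and rose by 0.35 (limma adjusted p = 0.00791). KRR1, a ribosome assembly factor whose gene overlaps GLIPR1 in RefSeq, read 11.35, 11.37 and 11.29 in the mutant, against 11.35, 11.38 and 11.45 in parental cells. The KRR1 groups overlapped and the difference was -0.05 (interval -0.18 to 0.07, limma adjusted p = 0.581).

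The 3 largest neighbour differences were decreases. SYT1, the calcium sensor of synaptic vesicle release and the last of the 10 genes on its side, read 6.32, 6.21 and 6.26 in the mutant, against 11.27, 11.20 and 11.34 in parental cells. It fell 32.1-fold, a log2 difference of -5.01 (SE 0.06, limma adjusted p = 7.39e-07). TRHDE, an ectoenzyme that degrades thyrotropin-releasing hormone, read 5.25, 5.60 and 5.38 in the mutant, against 7.17, 7.44 and 7.60 in parental cells, a difference of -1.99 (limma adjusted p = 0.000365). NAV3, a microtubule-binding neuron navigator, read 6.50, 6.61 and 6.47 in the mutant, against 7.96, 8.27 and 8.48 in parental cells, a difference of -1.71 (limma adjusted p = 0.000548). PHLDA1, a pleckstrin-domain protein, fell by 0.29 (limma adjusted p = 0.0143).

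Increases among the neighbours were small beside that of GLIPR1. Over all 20 neighbours, rises and falls together, the median size was 0.31, against 0.12 over all genes at any level. TMEM19 rose by 0.62, BBS10, a chaperonin-like gene of Bardet-Biedl syndrome, by 0.58, ATXN7L3B by 0.52, and CSRP2, a LIM-domain protein, by 0.49. Their limma adjusted p-values were 0.00147, 0.00213, 0.00174 and 0.00824. TBC1D15, a Rab GTPase regulator, rose by 0.31 and E2F7, a repressor of the E2F family, by 0.30 (limma adjusted p = 0.0134 and 0.037). The TBC1D15 and PHLDA1 calls were lost without mutant replicate 2 (adjusted p = 0.0542 and 0.0601) or without parental replicate 2 (0.0562 and 0.0603). The E2F7 call held only without parental replicate 3 among the 6 arrays left out in turn (highest adjusted p = 0.114).

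**Figure D3:**
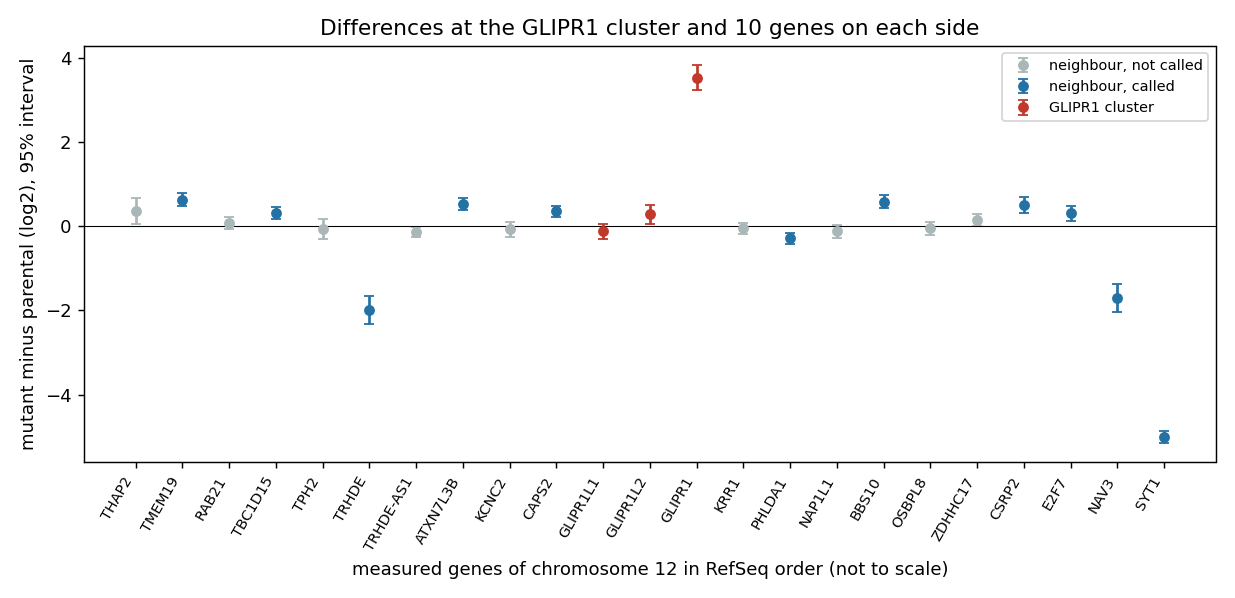
Mutant minus parental log2 difference with its 95% interval (vertical axis) for 23 measured genes of chromosome 12 in gene order, not to scale: the GLIPR1 cluster in red, and 10 genes on each side, in blue where called and grey where not. GLIPR1 is the tallest point at 3.52, and the adjacent CAPS2 and KRR1 lie at 0.35 and -0.05. SYT1, TRHDE and NAV3 are the low points at -5.01, -1.99 and -1.71. GLIPR1 was chosen on this contrast, so its interval is a description and no test.

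The 5 genes whose profile was most like that of GLIPR1 were found by the Euclidean distance over the 6 arrays between log2 profiles, each centred on its own mean. They share the same arrays and were chosen by their likeness, so their values are a description. MLLT11, a gene fused to KMT2A in some leukaemias, was nearest at a distance of 0.195. It averaged 11.11 ± 0.04 in mutant and 7.51 ± 0.18 in parental cells (SD, n = 3 each), a difference of 3.60. CSAG1, a cancer-testis antigen gene, was at 0.472, with a difference of 3.30. EDA2R, a TNF receptor family member, was at 0.530, with a difference of 3.90. All 5 genes had every mutant array above every parental array, as GLIPR1 did, which follows from how they were chosen.

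TNFSF4, the ligand OX40L, followed at a distance of 0.599 with a difference of 3.48, and PHYHD1, a dioxygenase, at 0.803 with 2.92. The next gene, just outside the 5, was NRG1 at 0.808 with 2.93, so the list has no sharp end. RefSeq promoter windows held 7 CG pairs for MLLT11, 16 for CSAG1, 8 and 15 for EDA2R at its 2 starts, 6 for TNFSF4 and 8 and 7 for PHYHD1.

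**Figure D4:**
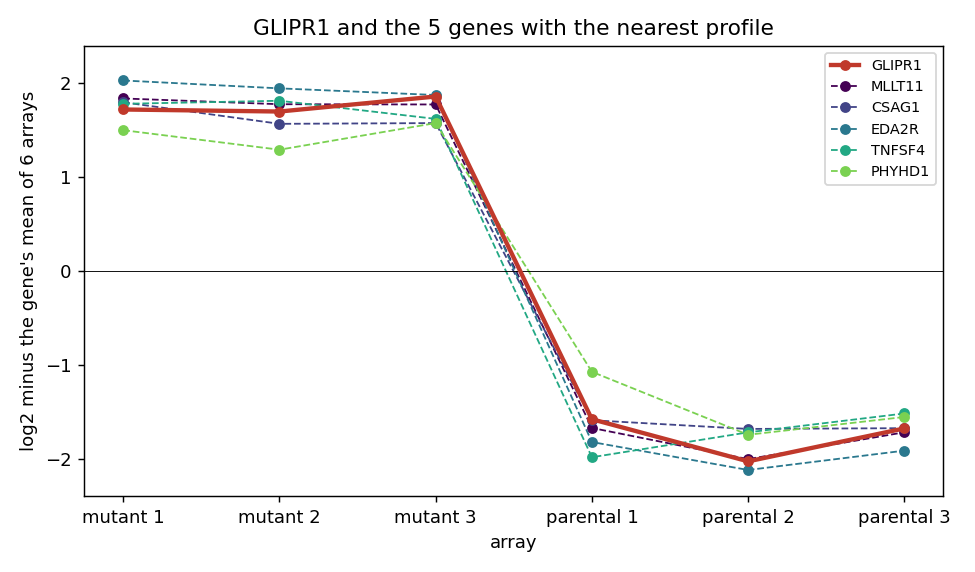
Log2 expression minus each gene's mean over 6 arrays (vertical axis) for GLIPR1 and the 5 genes nearest to it by profile, across 3 mutant and 3 parental arrays. MLLT11 runs closest to GLIPR1, at a distance of 0.195, and PHYHD1 farthest, at 0.803.

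Cell type markers were read beside these results. Epithelial markers marked both lines, with EPCAM at 12.33 in mutant and 12.15 in parental cells, while KRT20 (5.80 and 5.87) and VIL1 (5.76 in both) were low. limma called 0 of the 8 epithelial markers higher and 4 lower: KRT8 (-0.53), KRT18 (-0.88), KRT19 (-0.47) and CDH1, or E-cadherin (-1.36), against 14.6% of all genes called higher and 11.3% lower. Of the 8, all but KRT20 and VIL1 had means of at least 7, where 36.5% of genes were called in either direction. The mean over the list was 9.69 to 9.78 in mutant arrays and 10.11 to 10.14 in parental arrays. Its part in the GLIPR1 difference was not tested.

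GLIPR1 is also expressed by monocytes and macrophages. The mean of 8 markers of these cells was 5.68 to 5.77 in mutant and 5.70 to 5.77 in parental arrays. Levels within the list varied: PTPRC averaged 3.73 in mutant and 3.72 in parental cells, SPI1 7.02 and 6.92, and CD68 9.33 and 9.19. LYZ differed by -0.35 and was not called (limma adjusted p = 0.0866). Fibroblast markers averaged 5.71 to 5.78 in mutant and 5.75 to 5.79 in parental arrays, with 1 of 7, PDGFRB, called higher by 0.27 (limma adjusted p = 0.0322). DCN averaged 3.49 in both lines. COL1A1 averaged 8.13 in mutant and 8.30 in parental cells, a difference of -0.17 that was not called (limma adjusted p = 0.0614). Male germ cell markers averaged 5.00 to 5.15 in mutant and 5.09 to 5.18 in parental arrays. limma called 0 of 8 monocyte and macrophage markers and 0 of 8 germ cell markers, with 1 and 0 of them at an unadjusted p under 0.05. Over all genes 25.9% were called, and 4.1% of those with a mean under 5, where 3 markers of each of these 2 lists lie.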

How the data were processed

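Expression was measured on 6 Affymetrix Gene ST arrays, 3 of the mutant and 3 of the parental line, from 100 ng of total RNA each, per the labels' protocols. The deposited values are log2 expression per probe set, which the authors made with Partek and RMA per the submitters' processing notes (versions not given in the sources used here). Such processing makes array distributions alike and removes any difference in total RNA per cell. Precision is limited by how many arrays there are, since sequencing depth does not apply.

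Mutant minus parental differences were tested on all 33297 probe sets in R 4.3.3 with limma 3.58.1 (two-sided, lmFit then eBayes, no covariates), with Benjamini-Hochberg adjustment over all of them and a threshold of 0.05. The fit had 4 residual and 2.16 prior degrees of freedom, and the script was tested on simulated data. An exact permutation test of 3 against 3 arrays cannot go below p = 0.10, so none was used. Only probe sets with 1 symbol named a gene, and the one with the highest mean stood for a gene with several. Gene order and promoter sequences came from RefSeq (GRCh38.p14), and no gene coordinates were joined to the probe sets because the genome build behind that annotation is not given here. Tables and figures were made in Python 3.11.15 (pandas 2.3.3, numpy 2.4.6, matplotlib 3.10.9).

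Named genes were every member, every gene of the further CAP, regulator and partner lists, the 10 measured genes on each side of the GLIPR1 cluster where called or adjacent, and the 5 genes with the profile nearest to GLIPR1. One listed regulator is not reported here. The members and lists were chosen with earlier results of these data known. Alternatives were another normalization, a filter at a mean log2 of 6, an intensity trend, a replicate block, a minimum fold of 1.2, single-symbol probe sets alone, averaging a gene's probe sets, and leaving out each array.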

Additional observations from a re-analysis of the deposited data

How the results depend on the processing

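GLIPR1 was chosen on this contrast, so its call below is no test. The count of called CAP genes, 2 of 9 with GLIPR1 and PI15, was 1 with a minimum fold of 1.2 (GLIPR1 alone), 4 with only single-symbol probe sets tested (GLIPR1L2 and CRISPLD2 added) and 1 to 2 when an array was left out; without parental replicate 3 GLIPR1L2 was called in place of PI15. The mean log2 filter kept only GLIPR1, CRISPLD2 and PI16 of the members. Leaving out arrays turned the sign of 3 differences near 0, none of them called: CRISP2 ranged over -0.109 to 0.0273, CRISP3 over -0.0359 to 0.0740 and PI16 over -0.0678 to 0.0734. Calls among the 20 GLIPR1 neighbours numbered 6 in place of 11 with the minimum fold, and those among 30 neighbours of other members 3 in place of 8. The 4 called regulators and partners numbered 0 with the minimum fold, 7 with the mean log2 filter, 8 with an intensity trend, 7 with single-symbol probe sets and 1 to 3 when an array was left out. Over all probe sets 6166 were called, against 1743 with the minimum fold and 4037 to 4644 with 5 arrays, lowest without mutant replicate 2 and next, at 4109, without parental replicate 2. The filters and smaller designs test fewer probe sets or arrays; otherwise the cause was not tested.

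Arrays of the mutant and parental line share replicate numbers, but the labels do not say that a number marks a shared batch, and same-numbered deviations correlated at 0.043, -0.013 and 0.003. With the number as a replicate block, called CAP genes numbered 1, GLIPR1 alone (PI15 lost, adjusted p = 0.0528 by limma), called regulators and partners 2, GLIPR1 neighbours 9 and probe sets 4365. Of 3 mutant arrays, 1 correlated best with the parental array of its own number, too few arrays to tell whether numbers mark a batch.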

Other observations

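Genes near the listed CAP genes outside the GLIPR1 cluster were counted too. Of 30 measured genes, the 3 nearest on each side of each, limma called 3 higher and 5 lower, and 22 were not called. That share is near the 25.9% of all genes called, so nothing particular to these places is read from it. CRISP1, itself a CAP gene, is among the 30. Beside the CRISP genes, C6orf141 read 5.78, 5.31 and 5.49 in the mutant arrays, against 6.86, 7.04 and 7.05 in parental arrays, a log2 difference of -1.45 (limma adjusted p = 0.000867). CENPQ, a centromere protein gene of the same stretch, fell by 0.27 (limma adjusted p = 0.0154). CRISP2 and CRISP3 themselves had overlapping groups.

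Beside CRISPLD2, COTL1, which encodes an actin-binding protein, read 10.24, 10.22 and 10.35 in the mutant, against 11.15, 11.04 and 11.07 in parental cells. COTL1 fell by 0.81 (limma adjusted p = 0.000431), KLHL36 fell by 0.34 (limma adjusted p = 0.0105) and KIAA0513 rose by 0.41 (limma adjusted p = 0.00857). GNE, the key enzyme of sialic acid synthesis and a neighbour of GLIPR2, rose by 0.71 (limma adjusted p = 0.00224). ZFHX4, a neighbour of PI15 and CRISPLD1, rose by 0.32 (limma adjusted p = 0.00825). MTCH1, beside PI16, fell by 0.24 (limma adjusted p = 0.0168). The CENPQ call was lost without mutant replicate 2 (adjusted p = 0.0607), and the MTCH1 call for 4 of the 6 arrays left out (highest adjusted p = 0.0724). These 8 genes were named because they were called, after their values were seen.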
